A study of Mus musculus with 12 samples.

Results

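Insr, Irs1, Irs2, Akt2, Foxo1, Ppargc1a, Trib1, Igfbp1 and Igfbp2 carry or report the response of the liver to insulin and to fasting. Each was taken from the deposited gene table by its symbol. They are 9 of the 41128 genes in that table, and all 9 were among the 11782 genes with a mean normalised read count of at least 10. The livers came from 12 C57BL/6 mice. Germ-free (GF) mice stayed in sterile isolators throughout, whereas conventionalized (CV) littermates left the isolators at weaning, on day 21, for cages with soiled bedding from the same facility, where they spent 3 weeks. All mice were killed at 6 weeks of age, and each condition held 3 mice labelled male and 3 labelled female, with 1 RNA-seq library per mouse. The feeding state and the hour of sampling are not given in the sources used here.

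Insulin binds the receptor encoded by Insr, which phosphorylates the adaptor proteins IRS1 and IRS2. These recruit phosphoinositide 3-kinase and so activate AKT2, the main AKT isoform of insulin-responsive tissues. In the liver, AKT holds the transcription factor FOXO1 outside the nucleus after a meal. During fasting FOXO1 returns to the nucleus and activates Igfbp1 and Irs2, while glucagon raises cAMP and, through CREB, induces Ppargc1a, a coactivator of gluconeogenic genes.

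Values are the deposited normalised read counts, that is, reads divided by 1 size factor per library. GF libraries held 5993619 to 10975691 recovered reads and CV libraries 8890529 to 15290835. Mitochondrial ribosomal RNA, Lars2, Mir6236 and 3 predicted genes, 7 abundant loci in all, took 41.8 to 69.4% of GF reads and 5.39 to 21.9% of CV reads, so this share and the condition cannot be told apart. The share was 41.8 to 51.7% in GF males and 58.2 to 69.4% in GF females. It was 5.39 to 21.9% in CV males and 5.75 to 7.96% in CV females. Among GF livers this share and the labelled sex therefore cannot be told apart either. For CV male 3, Xist stood at 2382 and 4 Y-linked genes had 0 reads together, against 796 to 1314 such reads in the other libraries labelled male. Its sex label is therefore in doubt, and results for males are given with and without it.

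Sequence just upstream of the start sites was read for the members from RefSeq on build GRCm38.p6, and 7 of the 9 genes had at least 1 window. 4 windows of 250 bases are shown, those of Igfbp2 and Ppargc1a, whose changes over both sexes were the largest of the 9, and those of Igfbp1 and Irs2, which FOXO1 is known to activate. They are chr11:7197537-7197786 on the plus strand (Igfbp1), chr8:11008930-11009179 on the minus strand (Irs2), chr5:51567726-51567975 on the minus strand (Ppargc1a) and chr1:72824230-72824479 on the plus strand (Igfbp2). Each ends at the base before the start site and is written 5′ to 3′, with motif matches in capitals.
Igfbp1: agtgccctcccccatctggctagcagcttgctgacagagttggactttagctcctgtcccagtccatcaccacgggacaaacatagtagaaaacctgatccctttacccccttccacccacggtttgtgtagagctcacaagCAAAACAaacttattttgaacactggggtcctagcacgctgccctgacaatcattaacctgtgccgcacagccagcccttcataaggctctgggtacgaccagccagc
Irs2: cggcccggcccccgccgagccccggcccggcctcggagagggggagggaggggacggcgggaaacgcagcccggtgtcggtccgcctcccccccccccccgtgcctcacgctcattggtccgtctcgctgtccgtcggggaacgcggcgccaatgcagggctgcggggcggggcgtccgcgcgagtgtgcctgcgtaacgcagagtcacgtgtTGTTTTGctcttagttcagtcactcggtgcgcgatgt
Ppargc1a: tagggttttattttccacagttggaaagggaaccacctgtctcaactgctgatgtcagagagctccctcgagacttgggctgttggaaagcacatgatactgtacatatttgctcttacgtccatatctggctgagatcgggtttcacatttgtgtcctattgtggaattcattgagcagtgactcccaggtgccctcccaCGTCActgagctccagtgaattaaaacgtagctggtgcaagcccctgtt
Igfbp2: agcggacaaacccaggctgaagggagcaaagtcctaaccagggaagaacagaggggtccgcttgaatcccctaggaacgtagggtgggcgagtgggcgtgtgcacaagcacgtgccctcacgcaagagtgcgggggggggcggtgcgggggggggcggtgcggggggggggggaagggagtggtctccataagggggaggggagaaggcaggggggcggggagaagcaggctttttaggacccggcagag

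The core of the insulin response element, CAAAACA or its reverse complement TGTTTTG, lay 108 to 102 bases before the start site of Igfbp1. In Irs2 it lay 37 to 31 bases before the start site, in the reverse orientation. Irs1 held 2 matches. Among 32851 RefSeq promoter windows of the same length, 5.561% held this motif. The FOXO core GTAAACA matched in 3.166% of windows and the full cAMP response element TGACGTCA in 1.546%, and neither was found in a window of these genes. The shorter core TGACG, which lies within the full element, matched in 17.77% of windows, among them those of Ppargc1a, Irs1 and Akt2. In Ppargc1a it lay 49 to 45 bases before the start site, in the reverse orientation. A match is a stretch of letters and was not tested for binding. Likewise, a window without an exact match to the FOXO core was not shown to lack a site that FOXO1 binds.

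**Figure D1:**
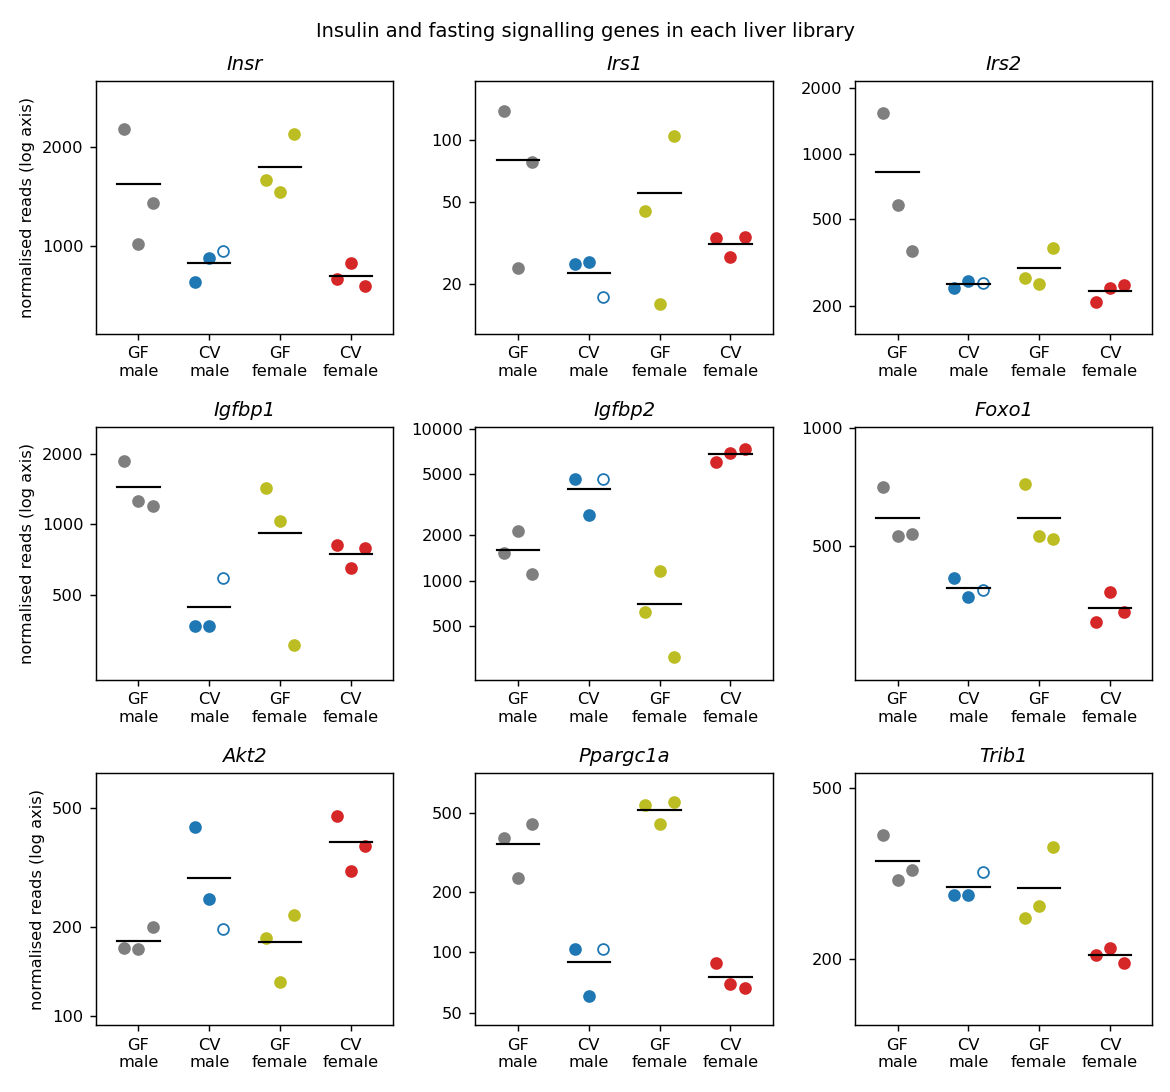
Normalised read count of each gene in every library (log axis), by condition and labelled sex, with the group mean as a black bar and the library labelled CV male 3 as an open symbol. CV libraries lie below GF libraries of the same labelled sex for Insr, Irs2, Foxo1 and Ppargc1a, and above them for Igfbp2.

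Averaged over the sexes, 7 of the 9 genes passed the test between conditions. Igfbp2 and Akt2 were higher in CV livers, and Insr, Irs2, Igfbp1, Foxo1 and Ppargc1a were lower. Of all genes tested, 61.1% passed, so most genes of the table did so too. In males 4 genes passed, against 29.5% of all genes, namely Igfbp2 (higher) and Irs2, Igfbp1 and Ppargc1a (lower). In females 5 passed, against 55.8% of all genes, namely Igfbp2 and Akt2 (higher) and Insr, Foxo1 and Ppargc1a (lower). Of all genes, 32.3% were higher and 28.7% lower in CV over both sexes, 14.1% and 15.4% in males, and 29.8% and 26.0% in females. The test throughout was limma on log2(value + 1), and passing means a Benjamini-Hochberg adjusted p under 0.05 over all genes tested. Fold changes are on that scale. Without CV male 3, again 4 genes passed in males, against 25.3% of all genes, with Akt2 in place of Igfbp2. The log2 changes in males were then -0.79 for Insr, -1.31 for Irs1, -1.44 for Irs2, 0.87 for Akt2, -0.58 for Foxo1, -2.08 for Ppargc1a, -0.26 for Trib1, -1.94 for Igfbp1 and 1.22 for Igfbp2. In males 7 genes passed in edgeR and in DESeq2, against 30.7% and 27.0% of all genes, Insr, Irs1 and Foxo1 joining the other 4. The median log2 change of the 9 genes was -0.87 over both sexes, -0.72 in males and -0.44 in females, beside 0.07, 0.06 and 0.08 across all genes. After removal of a length and GC trend the median over both sexes was 0.039 for the 9 genes and 0.078 for all genes. In whole liver, fewer cells of a type and less RNA per cell cannot be told apart.

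The receptor gene Insr (ENSMUSG00000005534, GRCm38 chr8:3122061-3279617, minus strand) encodes the insulin receptor. It stood at 2264, 1017 and 1355 in the GF males and at 779, 921 and 966 in the CV males. In females it stood at 1583, 1460 and 2183 in GF and at 795, 888 and 759 in CV. The libraries of the conditions did not overlap in either sex, and GF libraries spread more widely than CV libraries. In males the log2 change was -0.72 ± 0.28 (SE), with an adjusted p of 0.0640 in limma, and it ranged from -0.41 without GF male 1 to -0.98 without GF male 2, where it passed (adjusted p = 0.0182). In females Insr fell to 0.474 of its GF level, a log2 change of -1.08 ± 0.28 (adjusted p = 0.00417, limma). Over both sexes the log2 change was -0.90 ± 0.20 (adjusted p = 0.00102, limma).

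Irs1 (ENSMUSG00000055980, chr1:82233101-82291416, minus strand) encodes the substrate that is less abundant here. It was the lowest of the 9 genes and rested on 6 to 155 reads a library. GF libraries ranged from 16.0 to 139 and CV libraries from 17.3 to 33.7, so the conditions overlapped in both sexes. The spread among GF livers, 80.2 ± 57.5 (SD, n = 3) in males and 55.6 ± 45.6 (SD, n = 3) in females, exceeded that among CV livers, 22.6 ± 4.60 and 31.3 ± 3.82. The log2 change over both sexes was -0.97 ± 0.42 and missed the threshold in limma (adjusted p = 0.0545). It passed in edgeR (log2 change -1.39, adjusted p = 0.00410), and in limma without GF male 2 or without GF female 2, at -1.31 in each case, and the change was -0.64 without GF female 3. In males the log2 change was -1.49 ± 0.59 (adjusted p = 0.0674, limma) and passed without GF male 2 (-2.18), GF female 2 or GF female 3, but was -0.93 without GF male 1. In females it was -0.44 ± 0.59 (adjusted p = 0.537, limma), and ranged from -1.13 without GF female 2 to 0.20 without GF female 3.

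Irs2 (ENSMUSG00000038894, chr8:10984681-11008458, minus strand) is the substrate whose transcription rises in the fasted liver. Its values were 1545, 582 and 356 in GF males and 243, 261 and 254 in CV males. In females they were 269, 253 and 370 in GF and 208, 242 and 250.5 in CV. GF male 1 lay far above every other liver, while the CV livers of both sexes kept within 208 to 261. Irs2 fell in males by 1.43 ± 0.37 (SE) on the log2 scale (adjusted p = 0.0111, limma). Without GF male 1 it fell by 0.85 and passed by a small margin (adjusted p = 0.0498, limma). In females the log2 change was -0.33 ± 0.37 (adjusted p = 0.469, limma), although every CV female lay below every GF female, and -0.16 without GF female 3. Over both sexes the log2 change was -0.88 ± 0.26 (adjusted p = 0.00866, limma).

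Downstream of the receptor, Akt2 (ENSMUSG00000004056, chr7:27591552-27640826, plus strand) encodes the kinase through which insulin acts on hepatic glucose output. It ranged from 130 to 219 in the 6 GF livers, where males averaged 178.9 ± 18.1 and females 177 ± 44.3 (SD, n = 3 each). CV males stood at 431, 247 and 197, and CV females at 471, 309 and 373. The lowest CV male, the library labelled CV male 3, lay just under the highest GF male, whereas the females did not overlap. Akt2 rose 2.18-fold in females, a log2 change of 1.12 ± 0.29 (adjusted p = 0.00403, limma). In males the log2 change was 0.63 ± 0.29 (adjusted p = 0.116, limma), and it ranged from 0.31 without CV male 1 to 0.87 without the library labelled CV male 3, where it passed (adjusted p = 0.0489, limma).

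Foxo1 (ENSMUSG00000044167, chr3:52268336-52353221, plus strand) encodes the transcription factor that AKT phosphorylates and inactivates. GF livers held 708, 530 and 536 in males and 720, 529 and 519 in females. CV livers held 414, 370 and 386 in males and 319, 382 and 339 in females. All 6 CV livers lay below all 6 GF livers. In females Foxo1 fell by 0.75 ± 0.22 (SE) on the log2 scale (adjusted p = 0.00913, limma), and without GF female 1 the log2 change was -0.60 with an adjusted p of 0.0543. In males the log2 change was -0.59 ± 0.22 (adjusted p = 0.0580, limma), with an adjusted p of 0.0482 without GF female 2, and over both sexes it was -0.67 ± 0.16 (adjusted p = 0.00163, limma).

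Ppargc1a (ENSMUSG00000029167, chr5:51454250-51567726, minus strand) encodes PGC-1α, a coactivator of FOXO1, HNF4A and nuclear receptors. It stood at 373, 234 and 438 in GF males and at 104, 60.4 and 104 in CV males. In females it stood at 546, 439 and 565 in GF and at 88.7, 69.9 and 66.2 in CV. Every CV liver was lower than every GF liver. Ppargc1a fell to 0.260 of its GF level in males, a log2 change of -1.94 ± 0.28 (adjusted p = 6.06e-04, limma). In females it fell to 0.146, a log2 change of -2.77 ± 0.28 (adjusted p = 6.33e-06, limma). The call held in each sex with the library labelled CV male 3 left out (males -2.08, adjusted p = 0.00109).

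Trib1 (ENSMUSG00000032501, chr15:59648350-59657099, plus strand) encodes a pseudokinase that brings C/EBPα to the ubiquitin ligase COP1. Its values varied little, from 249 to 388 in GF livers and from 196 to 318 in CV livers. In males the conditions overlapped only through the library labelled CV male 3, at 318 against 306 in the lowest GF male. The log2 change in males was -0.20 ± 0.22 (adjusted p = 0.520, limma), or -0.096 without GF male 1. In females the CV livers, at 204, 212 and 196, lay below the GF livers, at 249, 266 and 364. The log2 change in females was -0.50 ± 0.22 and missed the threshold (adjusted p = 0.0632, limma), with a 95% interval from -0.96 to -0.03. It passed without CV male 1 (adjusted p = 0.0438), in edgeR (adjusted p = 0.0437) and in DESeq2 (adjusted p = 0.0331). Over both sexes the log2 change was -0.35 ± 0.16 (adjusted p = 0.0621, limma), and it passed by a small margin without GF female 1 (-0.40) or GF female 2 (-0.38), in edgeR (adjusted p = 0.0345) and in DESeq2 (adjusted p = 0.0295).

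The secreted members moved in opposite directions in males. Igfbp1 (ENSMUSG00000020429, chr11:7197782-7202546, plus strand) encodes an IGF binding protein that insulin represses through FOXO1. It stood at 1870, 1254 and 1202 in GF males and at 366, 369 and 591 in CV males. Igfbp1 fell to 0.306 of its GF level there, a log2 change of -1.71 ± 0.42 (adjusted p = 0.00825, limma). In females it stood at 1430, 1032 and 303 in GF and at 813, 648 and 789 in CV. The CV females lay between the GF females, with a log2 change of -0.04 ± 0.42 (adjusted p = 0.948, limma) and a 95% interval from -0.92 to 0.85. Over both sexes the log2 change was -0.87 ± 0.30 (adjusted p = 0.0177, limma). Without GF female 1 it was -0.65 and no longer passed (adjusted p = 0.0606). In females the log2 change turned to 0.41 without GF female 1, 0.18 without GF female 2 and 0.066 without CV female 2, and was -0.70 without GF female 3, none of which passed.

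Igfbp2 (ENSMUSG00000039323, chr1:72824503-72852474, plus strand) encodes another IGF binding protein made by hepatocytes. GF males held 1524, 2116 and 1098, and CV males held 4646, 2716 and 4634. GF females held 622, 1157 and 312, and CV females held 6071, 6904 and 7350. Every CV liver lay above every GF liver, and females spanned the wider gap. Igfbp2 rose 11.1-fold in females, a log2 change of 3.47 ± 0.39 (adjusted p = 8.77e-06, limma). In males it rose 2.55-fold, a log2 change of 1.35 ± 0.39 (adjusted p = 0.0188, limma). The call in males was lost without GF male 1, GF male 3, CV male 1 or CV male 3, with log2 changes from 1.11 to 1.35 and adjusted p from 0.0517 to 0.0912.

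Counted by library rather than by test, 6 of the 9 genes did not overlap between conditions in males, against 43.0% of all genes. In females 7 of the 9 did not overlap, against 64.9% of all genes. Irs1 overlapped in both sexes, Akt2 and Trib1 in males, and Igfbp1 in females. The overlaps of Akt2 and Trib1 in males came only from the library labelled CV male 3, at 197 and 318. The share of all genes was not counted without that library. For 7 of the 9 genes, all but Igfbp2 and Akt2, the SD was larger in GF than in CV livers in both sexes. These SDs are on the scale of the values, where the spread grows with the mean. Those 7 genes also had the higher mean in GF, and Igfbp2 and Akt2 the higher mean in CV. Igfbp2 in females stood at 697 ± 427 in GF and 6775 ± 649 in CV (SD, n = 3). The share of all genes with a larger SD in GF was not counted. GF male 1 had the highest Insr, Irs1, Irs2, Igfbp1 and Trib1 of all 12 livers. GF female 3 had the lowest Igfbp1 and Igfbp2 of all 12 livers.

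**Figure D2:**
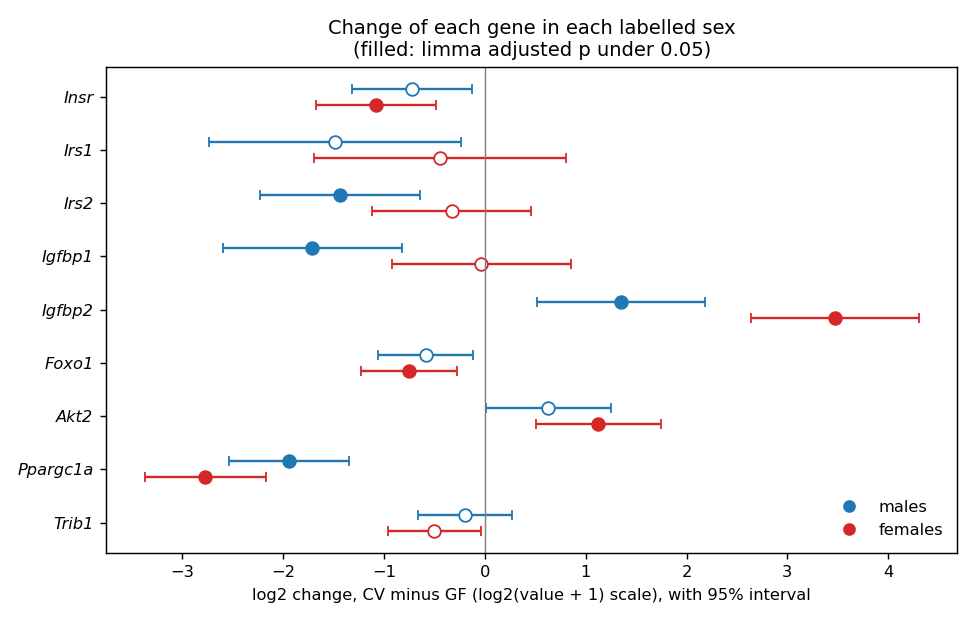
Log2 change from GF to CV of each gene in males (blue) and females (red), with 95% intervals, filled where the adjusted p in limma was under 0.05. Igfbp2 changed by 1.35 in males and 3.47 in females, and Igfbp1 by -1.71 and -0.04.

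Whether the change itself differed between the sexes was tested as an interaction, the female change minus the male change. None of the 9 genes passed in limma, and nor did any gene of the table (0.0% of all genes), with 1382 genes at an unadjusted p under 0.05. No gene passed in edgeR, and 24 passed in DESeq2 (1.51% of those it gave an adjusted p). Igfbp2 had the largest difference of the 9, 2.12 ± 0.56 (SE), with a 95% interval from 0.95 to 3.30 and an adjusted p of 0.417 in limma. It passed in DESeq2 (1.94, adjusted p = 0.0315) but not in edgeR (1.95, adjusted p = 0.420). Without CV male 3 it was 2.25 (adjusted p = 0.531, limma). For Igfbp1 the difference was 1.67 ± 0.59 (adjusted p = 0.417, limma) and for Irs2 it was 1.10 ± 0.53 (adjusted p = 0.429, limma). The interval of the Insr difference, from -1.20 to 0.49, and that of Foxo1, from -0.83 to 0.50, included 0. A change that passed in 1 sex alone, as for Irs2, Igfbp1, Insr, Foxo1 and Akt2, was thus not shown to be particular to that sex. Among GF livers the share of reads in the abundant loci was higher in every female than in every male. Its part in a difference between the sexes cannot be told apart from that of sex.

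Males and females were also compared over both conditions. None of the 9 genes passed, against 1.16% of all genes. The male minus female difference was 0.67 ± 0.26 for Irs2 (adjusted p = 0.344, limma) and 0.37 ± 0.16 for Trib1 (adjusted p = 0.374, limma). These were the members with an unadjusted p under 0.05, and no member passed in edgeR or DESeq2. Without CV male 3 the differences were 0.67 and 0.34 (adjusted p = 0.414 and 0.514, limma).

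The change of a gene was related to its transcript length across the table. In 10 classes of genes ordered by their longest annotated transcript, the median log2 change over both sexes went from 0.70 in the shortest class, up to 1366 nt, to -0.83 in the longest, from 6779 nt. From the shortest to the longest class the median went from 0.45 to -0.62 in males and from 0.89 to -1.08 in females. Insr (9355 nt), Irs1 (9144 nt) and Foxo1 (8665 nt) belong to the longest class. Their changes were higher than those of 47.7%, 44.4% and 59.4% of that class, which is near its middle. Irs2 (6323 nt) was higher than 32.7% of its class and Trib1 (4330 nt) higher than 38.4%. By contrast Ppargc1a (6464 nt) was higher than only 1.28% of genes of like length, and Igfbp1 (1525 nt) higher than 10.1%. Igfbp2 (1307 nt) and Akt2 (4544 nt) were higher than 99.2% and 90.5% of their classes.

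**Figure D3:**
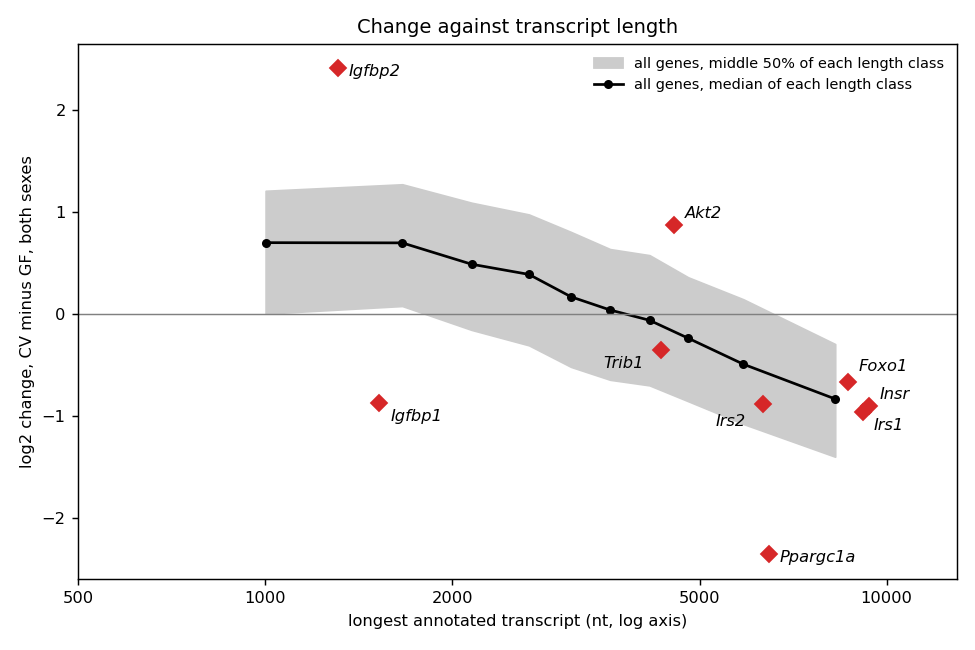
Log2 change from GF to CV over both sexes against the longest annotated transcript (log axis), with the 9 genes as red diamonds, the median of all genes in 10 length classes as a line and the interquartile range of each class in grey. Insr, Irs1 and Foxo1 lie near the line, and Igfbp1, Igfbp2, Akt2 and Ppargc1a lie outside the grey band.

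When a trend on transcript length and GC content was removed from each library, 4 of the 9 genes passed over both sexes, against 56.4% of all genes. Ppargc1a fell by 1.75 on the log2 scale (adjusted p = 4.86e-06, limma) and Igfbp1 fell by 1.52 (adjusted p = 3.79e-04, limma). Igfbp2 rose by 1.77 (adjusted p = 4.00e-05, limma) and Akt2 rose by 1.10 (adjusted p = 9.05e-05, limma). The log2 changes of Insr, Irs1 and Foxo1 became 0.10, 0.039 and 0.27, and that of Irs2 became -0.26. None of these passed, with adjusted p of 0.577, 0.934, 0.150 and 0.352 in limma. In males 4 genes passed, against 24.4% of all genes, with Irs2 still called (-0.95, adjusted p = 0.0483, limma) and Igfbp2 not (0.89, adjusted p = 0.0808, limma). In females 3 passed, against 49.9%, namely Igfbp2, Akt2 and Ppargc1a. How the length relation arose was not tested. Exons of Irs1, Irs2 and Foxo1 overlap a gene on the other strand, and those genes were at 0 to 1.92 in every library. The strand setting of the counting is not given in the sources used here. These low values therefore cannot show whether reads in the shared exons were left out of the counts.

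Scaling set the zero of these changes. With each library scaled to all its reads the median change of all genes was 0.62, and with scaling to the reads outside the 7 abundant loci it was -0.38. Genes called over both sexes were 3807 higher and 3387 lower as deposited, 5926 and 1614 when scaled to all reads, and 2145 and 4864 when scaled outside those loci. In males the higher and lower counts went from 1660 and 1814 to 2823 and 788, and to 875 and 2244. In females they went from 3512 and 3060 to 5832 and 1119, and to 1858 and 4649. Igfbp2 (2.97 and 1.95) and Ppargc1a (-1.80 and -2.81) passed over both sexes under both scalings. Over both sexes 3 of the 9 genes passed when scaled to all reads, against 64.0% of all genes, and 8 passed outside those loci, against 59.5%. In females 3 passed when scaled to all reads, against 59.0%. Insr, Irs2, Igfbp1 and Foxo1 passed over both sexes only with the deposited scaling and outside those loci, and Akt2 only as deposited and scaled to all reads. Trib1 changed sign, with 0.21 when scaled to all reads and -0.81 outside those loci. Each scaling applies 1 factor per library to every gene, so changes relative to the median of all genes could hardly move with it. Insr lay at -0.98, -0.96 and -0.99 from that median under the deposited scaling, all reads and reads outside those loci, and Akt2 at 0.80, 0.81 and 0.79. Removal of the length and GC trend is not such a factor, and there Insr lay at 0.02 and Akt2 at 1.02.

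**Figure D4:**
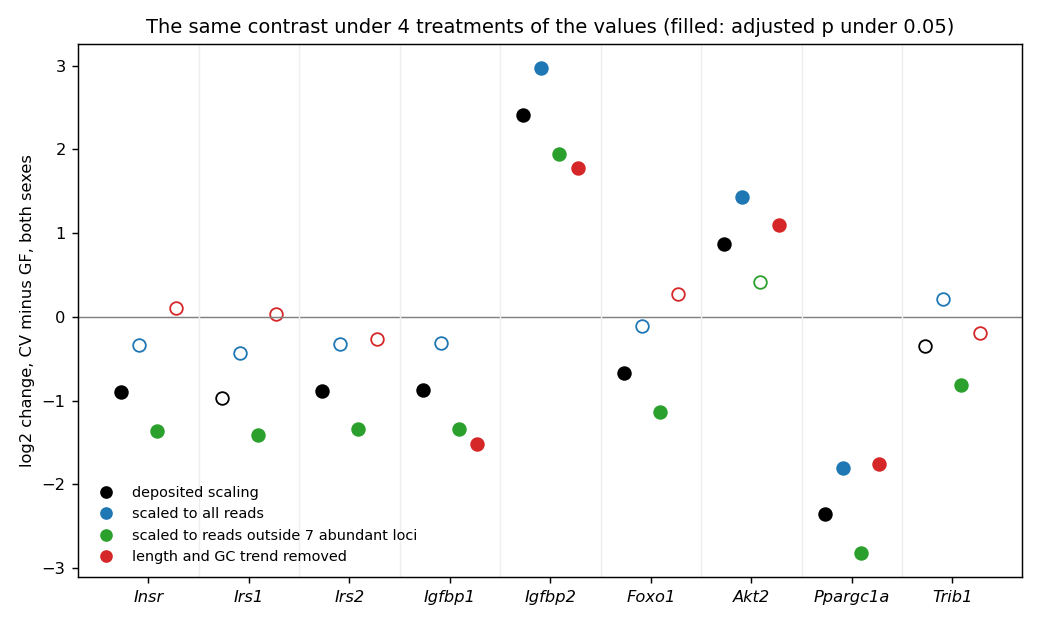
Log2 change from GF to CV over both sexes for each gene under the deposited scaling (black), scaling to all reads (blue), scaling to reads outside the 7 abundant loci (green) and removal of the length and GC trend (red), filled where the adjusted p was under 0.05. Igfbp2 and Ppargc1a are filled under all 4, with Igfbp2 between 1.77 and 2.97 and Ppargc1a between -2.81 and -1.75.

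Levels were compared between genes only per length, as the mean normalised read count per kb of the longest transcript. The same length divides a gene in both conditions, so the relation of change to transcript length remains in shifts of rank. Igfbp2 and Igfbp1 led in all 4 groups, Insr came next and Irs1 was lowest. In GF males Igfbp2 (1208 ± 391 per kb) and Igfbp1 (945 ± 244) overlapped, and in GF females so did Igfbp1 (604 ± 375) and Igfbp2 (533 ± 327; SD, n = 3). In CV livers they were far apart. Igfbp2 reached 3059 ± 849.99 per kb in males and 5184 ± 497 in females, against 289.996 ± 84.7 and 492 ± 58.5 for Igfbp1. Ppargc1a stood lower in the order in CV livers, from rank 7 to rank 8 in males and from rank 4 to rank 8 in females. It averaged 53.9 ± 16.1 per kb in GF males and 79.97 ± 10.6 in GF females, where it ranked above Foxo1, Trib1, Irs2 and Akt2, with ranges that overlapped those of Foxo1 and Trib1. In CV livers it averaged 13.8 ± 3.90 and 11.6 ± 1.87, below every library of the gene ranked above it. In GF males Irs2 ranged from 56.3 to 244 per kb, which covers the ranges of Trib1 and Foxo1 there. It went from rank 4 to rank 7 in males and kept rank 7 in females. Akt2 went the other way, from rank 8 to rank 5 in males and to rank 4 in females. Its mean went from 39.4 ± 3.99 and 38.99 ± 9.76 in GF to 64.3 ± 27.2 and 84.6 ± 17.97 in CV, where its range overlapped that of Insr in both sexes.

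Genes whose pattern over the 12 libraries was most like each member were found by the root mean square difference of centred log2 values. Foxo1 lay closest to Zfp207 (0.104) and Map7 (0.129), and Insr to Ubn1 (0.127) and Dnmt3a (0.132). Trib1 lay closest to Prkd3 (0.130) and Irf3 (0.166), and Akt2 to Def8 (0.160) and Usp5 (0.171). The nearest of so many genes is near by selection. The difference also grows with the size and spread of a gene's own variation, so it does not rank how closely members are tracked. For the other members the smallest differences were larger. Ppargc1a lay closest to Gon4l (0.289) and Gga3 (0.295), Igfbp2 to Hpx (0.359) and Mpc1 (0.365), and Irs2 to Ankrd33b (0.366) and Ppfibp2 (0.381). Irs1 lay closest to Eno3 (0.439) and Adamts13 (0.441). For Igfbp1 the nearest was Sik1 (0.440), a kinase gene induced by cAMP, followed by Arl4d (0.453). Among the members themselves, Insr and Foxo1 were the nearest pair (0.302).

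Other genes of the pathway were read from 9 lists, over both sexes, beside a table in which 61.1% of all genes passed, 32.3% higher and 28.7% lower. The other 2 scalings shift the whole table (50.3% higher and 13.7% lower when scaled to all reads, 18.2% and 41.3% outside the abundant loci). The lists of the receptor to AKT, inhibitor, FOXO, glucagon, TRIB1 partner and AMPK genes then came to hold more higher than lower calls when scaled to all reads, and the FOXO and fasting lists more lower than higher outside the loci, as all genes did. Of 19 genes from the insulin receptor to AKT and its targets, 4 rose and 6 fell (52.6% called), with a median log2 change of -0.31. Eif4ebp1 and Eif4ebp2, repressors of translation that mTORC1 inactivates, rose by 1.74 ± 0.20 and 1.22 ± 0.16 (adjusted p = 3.50e-06 and 1.29e-05, limma). Akt1 rose by 1.23 ± 0.17 (adjusted p = 1.83e-05, limma). Rictor, a subunit of the kinase complex mTORC2, fell by 1.49 ± 0.18 (adjusted p = 4.60e-06, limma), and by 0.50 without the length and GC trend. With that trend removed the list held 10 higher and 1 lower call and a median of 0.42, beside 31.3% higher and 25.2% lower among all genes.

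Among 14 inhibitors of insulin signalling, 2 rose and 5 fell (50% called). Trib3, an AKT-binding pseudokinase, rose by 1.10 ± 0.22 (adjusted p = 3.98e-04, limma) and Ceacam1, which promotes insulin clearance, rose by 1.01 ± 0.21 (adjusted p = 5.20e-04, limma). Grb10, an adaptor that binds and inhibits the receptor, fell by 1.43 ± 0.28 (adjusted p = 4.11e-04, limma), and the phosphatase gene Inpp5k fell by 0.62 ± 0.21 (adjusted p = 0.0167, limma). Of 8 IGF genes and IGF binding proteins other than the members, 4 rose and none fell (50% called), with a median of 0.65. Igfbp4 rose by 2.14 ± 0.25 (adjusted p = 4.60e-06, limma), Igfals by 1.61 ± 0.31 (adjusted p = 3.28e-04, limma) and Igfbp3 by 1.03 ± 0.19 (adjusted p = 2.28e-04, limma). Igfbp7 rose by 0.78 ± 0.25 (adjusted p = 0.0117, limma), a call that was lost (0.07) without the length and GC trend. Without it the rises of Trib3 and Igfbp3 were 0.65 and 0.63.

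Of 10 FOXO relatives and partners, 9 were tested, of which 3 rose and 3 fell (66.7% called). Foxa3, a hepatocyte transcription factor gene, rose by 0.96 ± 0.21 (adjusted p = 9.01e-04, limma). The acetyltransferase gene Ep300 fell by 1.17 ± 0.17 (adjusted p = 2.23e-05, limma) and Crebbp, of the same family, fell by 0.86 ± 0.17 (adjusted p = 3.78e-04, limma). The deacetylase gene Sirt1 fell by 0.95 ± 0.24 (adjusted p = 0.00298, limma). With the length and GC trend removed, Foxa3 rose by 0.45, Ep300 changed by -0.11 with no call, and Crebbp by 0.30 in the opposite direction (adjusted p = 0.0448, limma).

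The glucagon, cAMP and CREB genes had the lowest median of the 9 lists, -0.74, with 3 higher and 8 lower of 15 tested (73.3% called). Gcgr, the glucagon receptor gene, fell by 1.16 ± 0.20 (adjusted p = 1.49e-04, limma), and by 1.45 without the length and GC trend. Its mean went from 6120.3 ± 1233 to 2734 ± 516 in males and from 5253 ± 1457 to 2277 ± 109 in females (SD, n = 3). Crtc3, a coactivator of CREB, fell by 1.10 ± 0.20 (adjusted p = 2.33e-04, limma). The protein kinase A genes Prkaca and Prkar1a rose by 1.25 ± 0.23 and 0.99 ± 0.19 (adjusted p = 1.81e-04 and 3.02e-04, limma). Without the length and GC trend Prkaca rose by 0.83 and Crtc3 fell by 0.71, and the list held 5 higher and 7 lower with a median of -0.37.

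Genes that fasting is known to induce did not all move one way. Of 19, 7 rose and 2 fell (47.4% called), with a median of 0.22, and 10 did not pass, among them Pdk4 (0.31). Without the length and GC trend the list held 5 higher and 4 lower, with a median of 0.24. G6pc, of glucose release, is named here after its values were seen, since its change over both sexes, -0.44, averaged opposite signs. In males it fell by 1.59 ± 0.33 (adjusted p = 0.00360, limma), from 3667 ± 1273 to 1192 ± 319.5, and in females it stood at 1158 ± 366 in GF and 1838 ± 404 in CV, a log2 change of 0.70 ± 0.33 (adjusted p = 0.0851, limma). The difference between the sexes, 2.29 ± 0.47, did not pass (adjusted p = 0.417, limma). With the length and GC trend removed G6pc fell over both sexes, by 0.81 (adjusted p = 0.00447, limma). Fbp1, a gluconeogenic enzyme gene, rose by 2.46 ± 0.25 (adjusted p = 1.47e-06, limma). Pnpla2, a triglyceride lipase gene, rose by 1.66 ± 0.19 (adjusted p = 4.16e-06, limma), and Cpt1a, of fatty acid import into mitochondria, rose by 0.62 ± 0.18 (adjusted p = 0.00715, limma).

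Of 14 genes that insulin or feeding is known to induce, 13 were tested, of which 6 rose and 2 fell (61.5% called), with a median of 0.56. Me1 rose by 1.79 ± 0.26 (adjusted p = 2.38e-05, limma) and Pklr, of glycolysis, by 1.33 ± 0.31 (adjusted p = 0.00135, limma). Mlxipl, which encodes the glucose-responsive factor ChREBP, fell by 2.54 ± 0.25 (adjusted p = 1.32e-06, limma), from 6108 ± 1909.9 to 1189.6 ± 399.7 in males and from 6015 ± 2634 to 855 ± 49.7 in females (SD, n = 3). Acaca fell by 0.75 ± 0.16 (adjusted p = 6.62e-04, limma), and changed by 0.28 with no call once the length and GC trend was removed. Mlxipl is also on the list of 4 TRIB1 partners, where Cebpa rose by 1.55 ± 0.20 (adjusted p = 8.07e-06, limma), and Rfwd2 (0.40) and Cebpb (0.14) did not pass. Without the length and GC trend Rfwd2 rose by 1.19, and Cebpb stood at -0.31 with no call.

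Of 7 AMPK genes, which encode the sensor of low cellular energy and its activator, 1 rose and 2 fell (42.9% called). Prkag2 fell by 1.37 ± 0.19 (adjusted p = 1.59e-05, limma) and Prkab2 fell by 1.44 ± 0.30 (adjusted p = 5.66e-04, limma). Prkag1 rose by 0.45 ± 0.17 (adjusted p = 0.0311, limma), and Prkaa2 (0.36) did not pass. Without the length and GC trend Prkaa2 rose by 1.23, and Prkag1 was no longer called (-0.17).

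**Figure D5:**
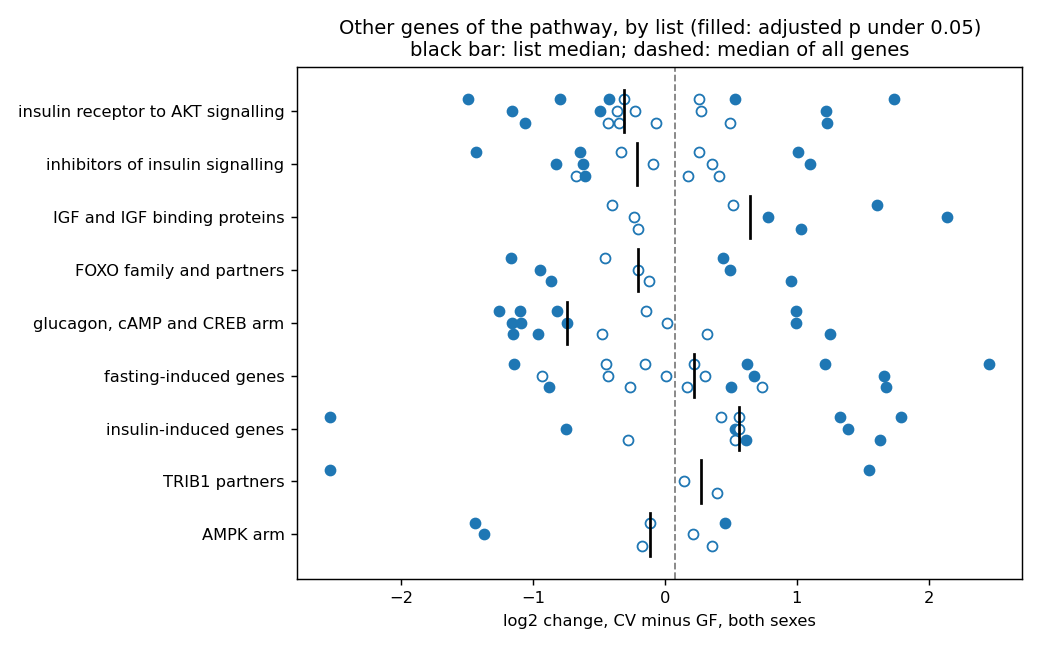
Log2 change from GF to CV over both sexes of each tested gene in the 9 lists, filled where the adjusted p was under 0.05, with the list median as a black bar and the median of all genes, 0.07, as a dashed line. The glucagon, cAMP and CREB genes have the lowest median, -0.74, and the IGF and IGF binding protein genes the highest, 0.65.

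Cell type markers were read over both sexes with the deposited scaling, where 32.3% of all genes rose and 28.7% fell. Neither their calls nor their sums were read under the other scalings or with the length and GC trend removed. Hepatocyte markers were present in every library, with sums over 8 genes from 101745 to 429958 in GF and from 359781 to 565948 in CV, and 5 of the 8 rose. Among markers of other cells, 4 of 7 Kupffer cell genes rose, with sums from 938 to 1808 in GF and from 1091 to 2399 in CV. Of 6 lymphocyte genes only 4 had a mean of at least 10 and were tested, and all 4 fell (173 to 302 in GF, 45.7 to 70.8 in CV). Of 4 blood genes 3 fell (2445 to 29483 in GF, 836 to 2845 in CV). Of 7 sinusoidal endothelial genes 2 fell (1369 to 3966 in GF, 648 to 1814 in CV), and of 6 stellate cell genes 2 rose and 2 fell (1363 to 2593 in GF, 1509 to 2875 in CV). Of 6 bile duct genes 5 were tested and none passed. Adipose, exocrine pancreas and skeletal muscle lists summed to at most 21.8 in any library, with Lep and Ckm at 0 in all. The part of these cells in the changes of the insulin and fasting genes was not tested.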

How the data were processed

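Liver RNA from 12 mice was sequenced from stranded poly(A) libraries. Per the labels and the submitters' processing notes, the tools named were HTSeq 0.6.1p1 and DESeq2, with build GRCm38, and the role of each is not given in the sources used here. The deposited values are a normalised signal per gene, that is, read counts that the authors divided by 1 size factor per library. Whole reads were recovered from it, with every value whole within 0.01 reads.

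Groups came from the sample titles. The test was limma 3.58.1 (R 4.3.3) on log2(value + 1) for genes with a mean value of at least 10, fitting 4 group means, an empirical Bayes trend and Benjamini-Hochberg adjustment over 11782 genes. All 12 libraries entered the fit. Depth limits Irs1 most, and intervals are 95% intervals of the model.

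Alternatives were other pseudocounts and filters, 2 other scalings, edgeR 4.0.16 with TMM factors and DESeq2 1.42.0 on the recovered reads, the mitochondrial ribosomal RNA share as a covariate, removal of a loess trend (span 0.5) on transcript length and GC content, the replicate number as a block, and each library left out in turn. The trend removal for the gene lists was added after the data had been seen. Scripts were tested on simulated data. Lengths, coordinates and missing names came from GENCODE M21, which listed 97.9% of the genes. Genes named beside the members were the up to 4 with the smallest adjusted p in each list, list genes that did not pass, and the 2 nearest neighbours of each member. 1 list gene chosen in this way is not reported here. The members and lists were chosen with earlier results of these data known. The paper linked to the series describes another experiment, and no method was taken from it.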

Additional observations from a re-analysis of the deposited data

Results flagged for a closer look

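In 18 comparisons of a library with the other 5 of its condition, covering each of the 9 genes in GF and in CV livers, 2 held a value far from the rest, where chance gives about 1 in 20. Irs2 in GF livers reached 1545 in GF male 1, against 582 in the next highest, a gap of 0.745 of the whole range. Irs2 in CV livers was 208 in CV female 1, against 242 in the next lowest, a gap of 0.640 of a much narrower range. No cause was tested for either.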

How the results depend on the processing

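As counts over all genes called, the test with the mitochondrial ribosomal RNA share as a covariate gave 3 genes in males, 0 in females, 0 over both sexes and 1 for the difference between sexes, and 0 of the 9 members in males, females and both sexes. That share was 9.36 to 16.4% in GF and 1.39 to 6.32% in CV libraries. The ranges do not overlap, so this fit could hardly separate the share from the condition, and its lost calls and turned signs cannot be read as either. A mean value of at least 100 gave 4068 genes in females and 4315 over both sexes. DESeq2 gave 24 genes and 1 member for the difference between sexes, 261 genes for male against female and 7 members in males, as edgeR did (7). Scaling to all reads gave 3 members in females, 3 over both sexes, and 1 member and 11 genes for the difference between sexes. Removal of the length and GC trend gave 3 members in females and 4 over both sexes.

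The log2 changes that turned sign were the following. With the length and GC trend removed, Insr changed by 0.0096 in males, 0.20 in females and 0.10 over both sexes, Foxo1 by 0.11, 0.44 and 0.27, Irs1 by 0.82 in females and 0.039 over both, and Irs2 by 0.42 in females, with differences between sexes of 0.19 for Insr and 0.33 for Foxo1. Scaled to all reads, Trib1 changed by 0.11 in males, 0.31 in females and 0.21 over both, and in females Irs1 changed by 0.33, Irs2 by 0.48, Igfbp1 by 0.77 and Foxo1 by 0.056, with differences between sexes of 0.14 for Insr, 0.33 for Foxo1 and 0.19 for Trib1. With the covariate, Akt2 changed by -0.54 in males, -1.59 in females and -1.06 over both, with a difference between sexes of -1.06, Irs2 by 0.82 in females, Igfbp1 by 2.84 in females and 1.18 over both, and the difference between sexes was 0.044 for Insr and -0.0050 for Irs1. The cause was not tested.

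With 1 library left out, genes called ranged from 1595 (without GF male 1) to 3877 in males, with 2125 without GF male 3 and 2190 without CV male 1. They ranged from 5550 to 7002 in females, 6640 to 7429 over both sexes, 0 to 282 for the difference between sexes (282 without CV male 1, 4 without CV male 3) and 88 to 205 for male against female. Members called ranged from 3 to 6 in males, 4 to 6 in females and 7 to 9 over both. In females Irs1 ranged from -1.13 to 0.20 and Igfbp1 from -0.70 to 0.41.

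The replicate numbers of GF and CV libraries of a sex did not pair them, since correlations of their deviations lay between -0.228 and 0.0188, and 0 of 12 libraries correlated best with their own number. With the replicate block 3466 genes were called in males, 6630 in females, 7228 over both sexes and 144 for male against female, and 5, 5 and 8 members in males, females and both, Irs1 being the gene added. Depth limits Irs1 most, with 6 to 155 reads a library.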
